A study of Mus musculus with 16 samples.

Results

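The Sp100 family locus on mouse chromosome 1 was followed through 5 members in the ageing bladder, out of 26813 genes and other named features that could be tested. The members are Sp100, Sp110 and Sp140, which encode nuclear body proteins, and a pair of array features named only by a position, chr1:85117750-85129200_R (the first interval) and chr1:85300475-85331475_R (the second interval). They were represented by 17 probes, of which 15 were bright enough to be kept. The Sp genes were included by name. Both intervals were selected on their measured age changes in both sexes, so those changes are given below as a description with no test, and the list was drawn up with results of these data in view.

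RNA of the bladder body of untreated C57BL/6 mice was hybridized to 16 Agilent arrays, with 1 mouse on each array. Each age group, MAT at 12 months and AGED at 27 to 30 months, held 4 males and 4 females. The bulk tissue holds all cell types of the bladder body, and fewer cells of a type cannot be told apart from less RNA per cell. Each slide carried the arrays of 1 sex, and its first row held MAT mice and its other row AGED mice, so that age and slide row, and sex and slide, cannot be told apart.

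Sp100 is a resident protein of the PML nuclear bodies, dot-like assemblies in the nucleus that are built around the PML protein and held together by SUMO modification. Sp110 and Sp140 share its SAND domain, a DNA-binding fold, and Sp140 also carries a PHD finger and a bromodomain, which read histone marks. Transcription of the family is known to respond to interferon, and the genes are best known from leukocytes and from defence against intracellular pathogens. The mouse cluster also holds copied relatives of these genes, among them Csprs, the component of Sp100-rs, and several predicted genes.

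The interval names give positions on build mm9. The first interval spans 11451 bases and the second 31001 bases, with 171274 bases between them, and each was covered by 5 probes to the strand marked R, taken here as the reverse strand. The files give no position for the Sp genes. In the RefSeq annotation of build GRCm38.p6 the genes Sp110, Sp140 and Sp100 follow each other on chromosome 1, after Gm7609, C130026I21Rik and other predicted genes. Because the builds differ, the distance from the intervals to the Sp genes, and the gene that either interval belongs to, were not determined here. The probe sequences were not used here either, so signal from near-identical copies could not be separated.

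How alike the copies are can be seen from their promoters. They are shown because the fitted age changes of Gm7609 and Sp100 below were of unequal size. That contrast was not tested, and neither gene was called in either sex. RefSeq promoters (GRCm38.p6), each from 250 bases before to 50 bases after the start site and written 5′ to 3′ on the strand of the gene, were found for 6 of 8 family genes looked for. In the Sp100, Gm7609 and Sp110 promoters the capitals mark a match to GAAANNNGAAA or its reverse complement. In the Sp140 and A530032D15Rik promoters the capital marks the only base that differs between them where they overlap. They lie at chr1:85649764-85650063 for Sp100, chr1:85199361-85199660 for Gm7609, chr1:85598761-85599060 (minus strand) for Sp110, chr1:85600453-85600752 for Sp140 and chr1:85109804-85110103 (minus strand) for A530032D15Rik.
Sp100: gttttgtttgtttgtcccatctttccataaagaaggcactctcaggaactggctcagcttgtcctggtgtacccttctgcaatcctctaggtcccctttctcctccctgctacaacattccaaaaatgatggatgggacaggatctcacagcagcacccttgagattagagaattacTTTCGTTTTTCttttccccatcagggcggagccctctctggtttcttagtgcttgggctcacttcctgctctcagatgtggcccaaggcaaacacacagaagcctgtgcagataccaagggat
Gm7609: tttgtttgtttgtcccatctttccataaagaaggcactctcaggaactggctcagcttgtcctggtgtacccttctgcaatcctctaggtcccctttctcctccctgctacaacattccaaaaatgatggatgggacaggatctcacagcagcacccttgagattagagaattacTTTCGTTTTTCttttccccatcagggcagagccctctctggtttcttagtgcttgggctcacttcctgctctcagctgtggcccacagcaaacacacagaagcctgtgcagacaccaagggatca
Sp110: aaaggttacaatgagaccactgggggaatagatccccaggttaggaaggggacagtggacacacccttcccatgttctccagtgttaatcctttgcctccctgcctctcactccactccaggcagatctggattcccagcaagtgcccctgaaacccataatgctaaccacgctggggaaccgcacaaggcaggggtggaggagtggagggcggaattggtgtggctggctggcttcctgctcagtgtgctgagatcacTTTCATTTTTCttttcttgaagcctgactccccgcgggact
Sp140: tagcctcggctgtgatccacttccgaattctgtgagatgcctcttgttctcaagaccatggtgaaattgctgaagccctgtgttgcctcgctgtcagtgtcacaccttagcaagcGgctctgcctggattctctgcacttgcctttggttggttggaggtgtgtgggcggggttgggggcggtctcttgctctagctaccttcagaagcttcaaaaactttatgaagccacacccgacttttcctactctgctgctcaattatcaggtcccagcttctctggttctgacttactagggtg
A530032D15Rik: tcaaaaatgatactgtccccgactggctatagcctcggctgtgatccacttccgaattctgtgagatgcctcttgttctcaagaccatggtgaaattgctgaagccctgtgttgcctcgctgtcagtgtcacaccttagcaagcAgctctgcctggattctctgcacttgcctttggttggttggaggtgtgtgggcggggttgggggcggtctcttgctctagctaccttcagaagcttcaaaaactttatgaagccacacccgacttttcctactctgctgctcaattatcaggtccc

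The Gm7609 and Sp100 promoters were identical at 293 of 298 aligned bases. The Sp140 promoter was identical to that of A530032D15Rik at 270 of 271 aligned bases and to that of C130026I21Rik at 254 of 262. Between the Sp100 and Sp140 promoters 29.4% of the aligned bases were identical. The motif in capitals was chosen after the sequences were seen, is held by 2.75% of the 32851 promoters of the table on either strand, and is a match of letters alone. The core of the interferon-stimulated response element, GAAANNGAAA, was in 3.44% of all promoters and in 14 of 23 listed interferon-stimulated genes with a promoter, and TTCNNNGAA, the core bound by STAT dimers, was in 8.30% of all promoters. Neither had a match in the 8 promoter windows of the 6 family genes.

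Values below are scaled log2 signals, the log2 processed signal of a probe minus the 75th percentile of its array, so that a negative value lies below that percentile. Levels of different probes cannot be compared. The brightest kept probe on average stood for each gene. Differences were fitted with limma in a single model, and p-values were adjusted by the Benjamini-Hochberg method across the 26813 genes. Called genes are those with an adjusted p under 0.05 that differed by at least 2-fold. The share of probes well above background ran from 52.4% to 68.3% over the arrays and was lowest on AGED male replicate 1. The tissue label was checked with urothelial and smooth muscle markers. All 6 of each list were measured, with mean scaled log2 signals of 5.84 to 6.42 and 6.65 to 7.27 over the arrays, and 0 of them were called with age in either sex.

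The 5 members had age changes of different size, a contrast that was not tested. Both intervals were higher in AGED than in MAT mice of both sexes, by 2.23-fold to 4.36-fold. Sp100, Sp110 and Sp140 were not called in either sex, with fitted differences between -0.46 and 0.57 on the log2 scale.

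The first interval gave scaled log2 signals of -4.72, -5.34, -4.67 and -5.65 in the 4 MAT males and of -2.51, -3.09, -3.67 and -3.26 in the 4 AGED males. In females they were -4.02, -3.73, -4.57 and -4.32 in MAT mice and -2.02, -2.34, -2.22 and -1.55 in AGED mice. No AGED array was as low as any MAT array of its sex. The mean was -5.10 ± 0.48 (SD, n = 4) in MAT males and -3.13 ± 0.48 in AGED males, a difference of 1.96 (3.9-fold, standard error 0.28). In females the mean went from -4.16 ± 0.36 to -2.03 ± 0.35 (SD, n = 4), a difference of 2.12 (4.36-fold, standard error 0.28). This probe was well above background on 15 of the 16 arrays and on 3 of the 4 MAT male arrays. In males the difference was 0.99 with probes measured on all 16 arrays, 1.12 over the median of its probes, and 1.18 with normexp background correction and quantile normalization.

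The 5 kept probes of the first interval all went the same way, to unequal extents. Their age changes ran from 0.68 to 1.96 in males, where AGED arrays were all above MAT arrays for 3 probes, and from 0.77 to 2.12 in females, where this held for all 5. Among all genes, AGED arrays were all above MAT arrays for 3.91% in males and 5.07% in females. The interval was selected on its age changes and its probes share the same arrays, so these counts carry no weight here. The probe with the smallest male change was well above background on 6 of 16 arrays. The opposite strand of the same interval was measured by 5 probes with changes of 0.53 to 0.73 in males and 0.15 to 0.47 in females. Its tested probe was not called, with an adjusted p of 0.188 for males and 0.582 for females (limma).

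The second interval had scaled log2 signals of -3.63, -3.84, -4.10 and -4.10 in MAT males and of -2.17, -2.72, -3.19 and -2.96 in AGED males. In females the signals were -3.96, -3.75, -4.22 and -4.24 in MAT mice and -2.70, -2.60, -2.44 and -2.22 in AGED mice. The age groups again did not overlap in either sex, and AGED male replicate 1 was the highest of all arrays. The difference was 1.16 in males (2.23-fold, standard error 0.20) and 1.55 in females (2.94-fold, standard error 0.20). With normexp background correction and quantile normalization it was 0.30 in males and 0.91 in females. Of its 5 probes 3 were kept, with changes of 0.89 to 1.32 in males and 0.43 to 1.55 in females. Of the other probes, 1 did not rise well above background on any array, and the other did so on 3 AGED female arrays alone.

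**Figure D1:**
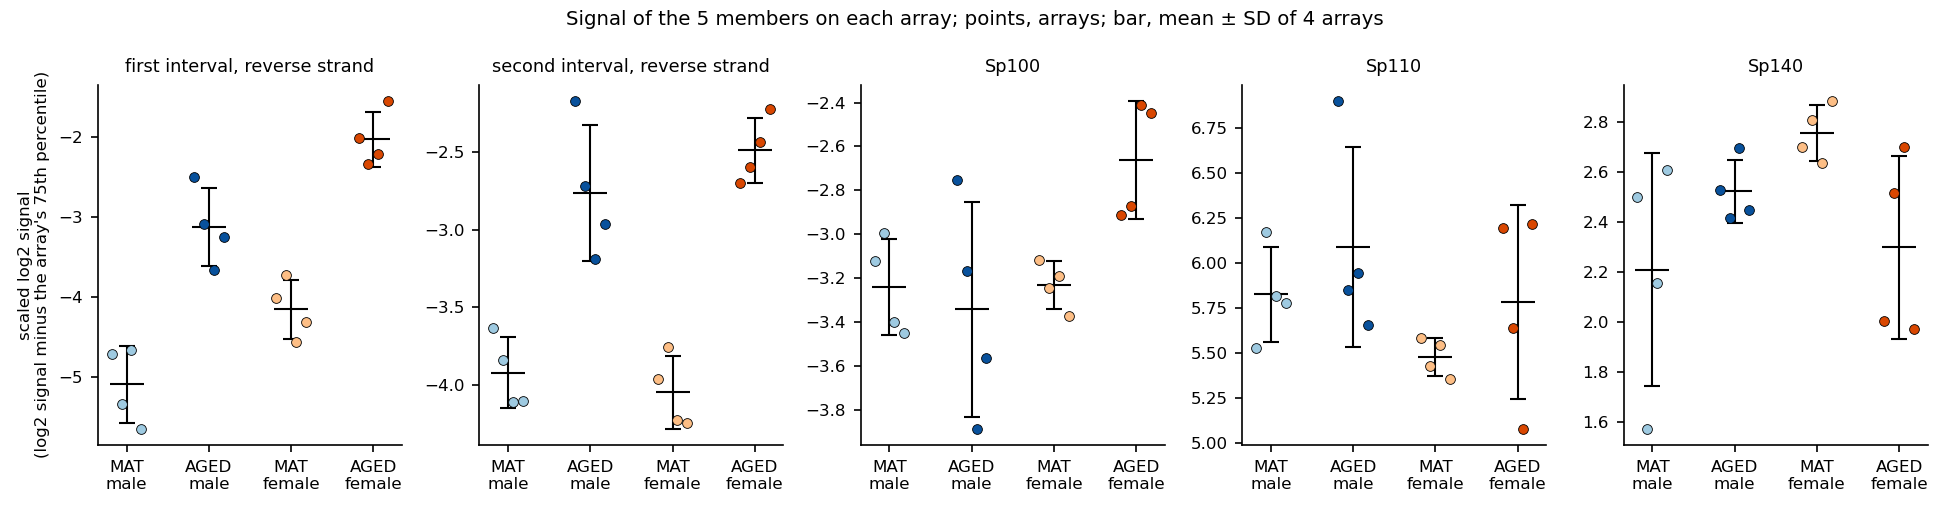
Scaled log2 signal of the 5 members (y axis, log2 signal minus the array's 75th percentile, each panel with its own range) in the 4 groups (x axis); points are arrays and bars the mean ± SD of 4 arrays. AGED arrays lay above MAT arrays of the same sex for both intervals, and for Sp100 in females, while the groups overlapped for Sp110 and Sp140.

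Sp100 was not called in either sex, and its age groups were apart in females alone. In males its scaled log2 signals were -3.12, -3.0, -3.40 and -3.45 in MAT mice and -2.75, -3.17, -3.89 and -3.56 in AGED mice. In females they were -3.12, -3.24, -3.19 and -3.37 in MAT mice and -2.91, -2.87, -2.41 and -2.45 in AGED mice. The male groups overlapped widely, with the highest and lowest male array both AGED, and the female groups did not overlap. The difference was -0.10 in males (95% confidence interval -0.55 to 0.35, adjusted p = 0.843, limma) and 0.57 in females (0.12 to 1.02, adjusted p = 0.368). In the fit over all genes AGED arrays were all above MAT arrays for 3.91% of genes in males and 5.07% in females.

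Sp110 was measured by 3 probes, and its tested probe spread most in AGED mice. Its scaled log2 signals were 5.53, 6.17, 5.82 and 5.78 in MAT males and 6.90, 5.85, 5.94 and 5.66 in AGED males. They were 5.58, 5.43, 5.54 and 5.36 in MAT females and 6.20, 5.64, 5.08 and 6.21 in AGED females. The groups overlapped in both sexes, and the dimmest array, AGED male replicate 1, was the highest. The difference was 0.26 in males (95% confidence interval -0.33 to 0.85, adjusted p = 0.663, limma) and 0.30 in females (-0.28 to 0.89, adjusted p = 0.764). Over its 3 probes the age change ran from -0.07 to 0.31 in males and from 0.30 to 0.55 in females.

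Sp140 gave values on opposite sides of 0 in the sexes, neither of them called. Its scaled log2 signals were 2.5, 1.57, 2.16 and 2.61 in MAT males and 2.53, 2.42, 2.69 and 2.45 in AGED males. In females they were 2.70, 2.81, 2.63 and 2.88 in MAT mice and 2.0, 2.52, 2.70 and 1.97 in AGED mice. MAT male replicate 2 was the lowest array and MAT females the tightest group. The difference was 0.31 in males (95% confidence interval -0.14 to 0.76, adjusted p = 0.485, limma) and -0.46 in females (-0.91 to -0.01, adjusted p = 0.468). Its 3 probes did not share a direction, with changes of -0.31 to 0.31 in males and -0.46 to 0.38 in females.

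Thus 0 of the 3 Sp genes were called in either direction. Among all genes 0.276% were called higher and 0.574% lower in AGED males, and 0.179% higher and 0.0112% lower in AGED females. Both intervals were called higher in both sexes, which is what they were selected for and carries no weight here. The difference of the age changes between males and females, tested over all genes, was called for 0.149% of them and for 0 of the 3 Sp genes. It was -0.67 for Sp100 (adjusted p = 0.483, limma), -0.04 for Sp110 (adjusted p = 0.987) and 0.77 for Sp140 (adjusted p = 0.395). For the intervals, without a test, it was -0.16 and -0.40.

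The order of the 4 groups differed among members. For the first interval it ran from AGED females through AGED males and MAT females to MAT males, with each step larger than the SD of either group. For the second interval both AGED groups were above both MAT groups, and neither the AGED nor the MAT sexes were apart by more than their SD. For Sp100 AGED females stood above the other groups, which were within their SD of each other, and for Sp110 no neighbouring groups were apart by more than their SD. For Sp140 only the step from MAT females, the highest, to AGED males was larger than the SD.

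The comparison between the sexes was not used to select the intervals, but it shares arrays with the age changes that were. In AGED mice the first interval was lower in males than in females by 1.10 on the log2 scale (2.14-fold, standard error 0.28, adjusted p = 0.0264, limma). Over its 5 kept probes this difference, male minus female, ran from -1.18 to -0.13. In MAT mice the difference, male minus female, was -0.94 (adjusted p = 0.155). Calls between the sexes were made for 3.11% of all genes in AGED mice and 0.164% in MAT mice. The call in AGED mice was lost without AGED female replicate 1 or 4 or AGED male replicate 3 or 4 (adjusted p = 0.0523, 0.0783, 0.0737 and 0.0541). It was also lost, and the difference was smaller, with normexp and 75th percentile scaling (-0.40, adjusted p = 0.155), normexp and quantile normalization (-0.53, 0.0640) and the median of the probes (-0.66, 0.0679). The other 4 members were not called between the sexes at either age. Among these, Sp100 in AGED mice was lower in value in males by 0.68 (adjusted p = 0.0549), and the second interval differed by -0.27 (adjusted p = 0.424).

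Other array features named by a position within 500 kb showed where else the signal changed. Besides the members there were 12 such features, of which 11 were tested. In males 1 was called higher, beside 0.276% of all genes, and in females 2 were, beside 0.179%, and 0 were called lower. Inside the second interval and on the same strand lies chr1:85304494-85305390_R, whose 3 probes all had AGED arrays above MAT arrays in both sexes. It rose by 1.83 in males (3.55-fold, standard error 0.38, adjusted p = 0.0241, limma) and had a difference of 1.95 in females (adjusted p = 0.0503). The male call was lost without AGED male replicate 4 (adjusted p = 0.0566) or without MAT male replicates 1, 2 or 3 (0.0655, 0.0561 and 0.0787), and with males fitted alone (0.158). A further feature there, chr1:85310067-85323941_R, had differences of 1.94 for males (adjusted p = 0.0918) and 2.02 for females (adjusted p = 0.185). Its tested probe was well above background on 1 of the 4 MAT male arrays (SD 1.20), so that the male value is set against a group near background. These features overlap the second interval on its strand, so they are not independent of it.

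On the other side, before the first interval, chr1:85036677-85038530_R rose by 1.89 in AGED females (3.70-fold, adjusted p = 0.0269, limma) and differed by 0.93 in males (adjusted p = 0.141). Leaving out 1 array ended the female call for 6 of 16 arrays, AGED female replicates 2 and 4 and all 4 MAT females, with adjusted p between 0.0540 and 0.127. The forward-strand feature chr1:84961943-84962737_F rose by 2.13 in AGED females (adjusted p = 0.0407) and differed by 1.58 in males (adjusted p = 0.0559). Its female call was lost without any one of the 8 female arrays, and also without AGED male replicate 2 or MAT male replicates 1, 3 or 4, with adjusted p between 0.0556 and 0.165. Between both intervals, chr1:85150625-85185800 was measured by 1 kept probe on each strand, with differences of -0.04 and -0.24 on the forward strand in males and females and -0.48 and 0.52 on the reverse strand. Its neighbour chr1:85156338-85167730_R was not called, and its 3 kept probes were unequal. The tested probe had differences of -0.02 in males and 0.01 in females, while the others had 0.70 and 0.58 in males and 0.60 and 0.38 in females, with a median of 0.58 and 0.38 over the probes and overlapping age groups for each probe. Over all 11 tested features the median change was 0.21 in males and 0.35 in females, beside 0.00 and -0.01 over all genes.

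**Figure D2:**
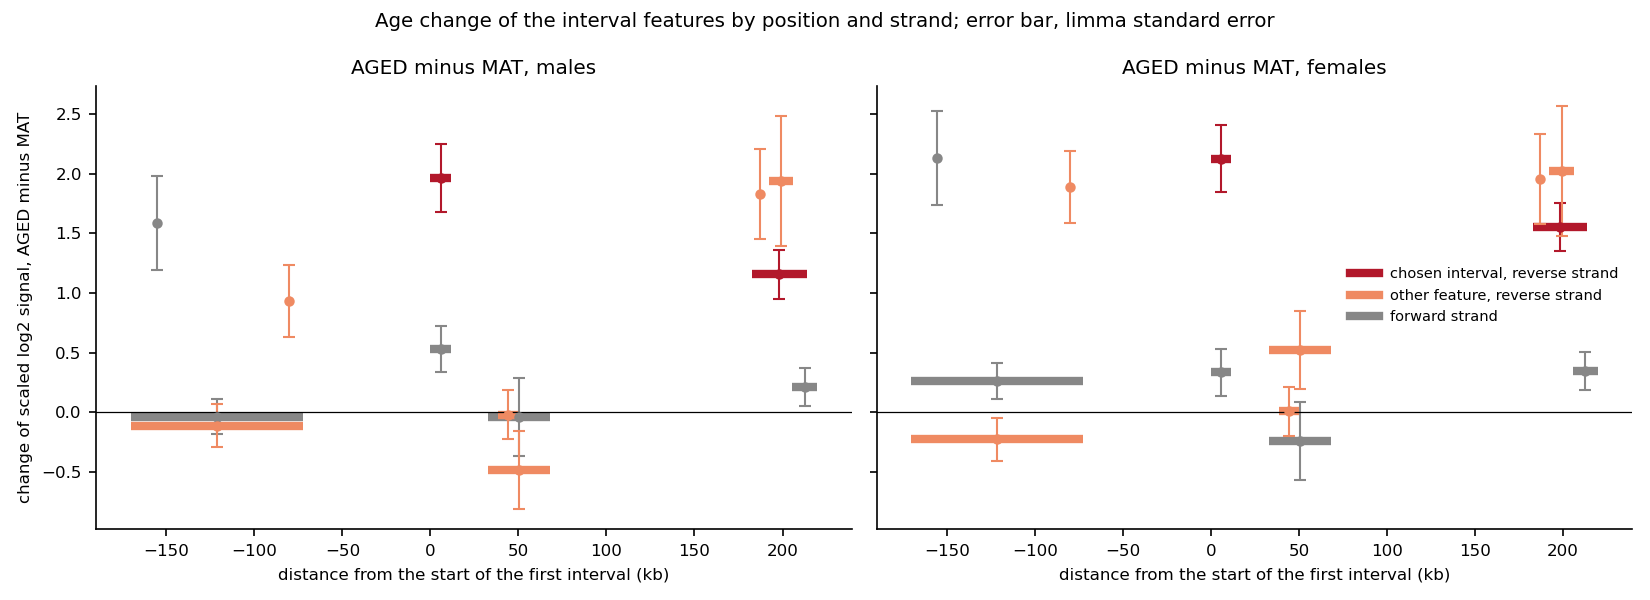
Age change of each tested interval feature (y axis, AGED minus MAT, scaled log2 signal) against its distance from the start of the first interval (x axis, kb), in males and females; thick lines span the feature, error bars are limma standard errors and colours mark strand. The opposite strand of the first interval changed by 0.53 and 0.34 beside 1.96 and 2.12 for the first interval, and no feature between both intervals was called, with values from -0.48 to 0.52.

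Named relatives of the family were the next closest genes. Of 14 relatives listed, 6 were tested and 0 were called in either sex, though Csprs and Gm7609 were close to the limit in females, with a median change of 0.72 in males and 0.52 in females. Csprs had scaled log2 signals of -0.10, 0.21, -0.14 and -0.87 in MAT males and 2.69, 1.72, 0.50 and 0.13 in AGED males. They were 0.67, 0.94, 0.76 and 0.37 in MAT females and 2.42, 2.61, 2.91 and 3.50 in AGED females. The female groups stood well apart, and in males the lowest AGED array fell within the MAT range. The difference was 1.48 in males (standard error 0.44, adjusted p = 0.111, limma) and 2.18 in females (4.52-fold, adjusted p = 0.0655), and all 3 Csprs probes had AGED above MAT females, by 1.23 to 2.51.

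Gm7609, the copy whose promoter nearly matches that of Sp100, had signals of -5.16, -5.49, -5.59 and -4.85 in MAT males and -2.28, -3.54, -4.52 and -4.20 in AGED males. In females they were -4.24, -4.05, -4.20 and -4.94 in MAT mice and -2.92, -2.35, -2.21 and -1.47 in AGED mice. AGED arrays lay above MAT arrays in both sexes, and 2 of the 4 MAT male arrays were well above background. The difference was 1.64 in males (3.11-fold, adjusted p = 0.0613, limma) and 2.12 in females (4.36-fold, adjusted p = 0.0534). The spread is shared by all groups, and with AGED male replicate 1 left out Csprs and Gm7609 passed the test in females (adjusted p = 0.00900 and 0.00790). Without AGED male replicate 4 Csprs passed in both sexes (adjusted p = 0.0401 in males and 0.0437 in females), and without AGED male replicate 3 so did Gm7609 (0.0323 and 0.0339). In females both were also called with median scaling (adjusted p = 0.0446 for Csprs and 0.0345 for Gm7609), a variance trend (0.0463 and 0.0444), array weights (0.00261 and 0.00437) and each sex fitted alone (0.0145 and 0.0340). Csprs was called there with probes well above background on all 16 arrays (0.0389) and over the median of its probes (0.0375), and Gm7609 with normexp and quantile normalization (0.0262) or 75th percentile scaling (0.0347). In females each was called in only 2 of the 16 fits with 1 array left out. Of the other settings, 7 of 16 called Csprs and 7 of 15 Gm7609 in females, and 0 and 2 did so in males. Each of these counts above 0 includes the setting in which p-values were left unadjusted, where a call does not rest on an adjusted p. The smallest change over these settings was 0.53 in males and 1.23 in females for Csprs, and 0.80 and 1.32 for Gm7609.

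The other 4 relatives differed less. A530032D15Rik and C130026I21Rik, whose promoters nearly match that of Sp140, differed by 0.72 (adjusted p = 0.335, limma) and 0.73 (adjusted p = 0.0743) in males and by 0.80 (adjusted p = 0.445) and 0.23 (adjusted p = 0.745) in females. Aire and Deaf1, regulators of transcription on other chromosomes that also carry a SAND domain, gave changes between -0.34 and 0.67. Of 29 neighbours of the Sp genes in the RefSeq order, 11 were tested and 0 were called. Past Sp100, Armc9 came closest (0.63 in males, adjusted p = 0.0194, under 2-fold). The other tested genes there ran from -0.62 for 2810459M11Rik in males to 0.62 for Htr2b in females. Among them Cab39, Itm2c and Psmd1 differed by -0.09 to 0.37.

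**Figure D3:**
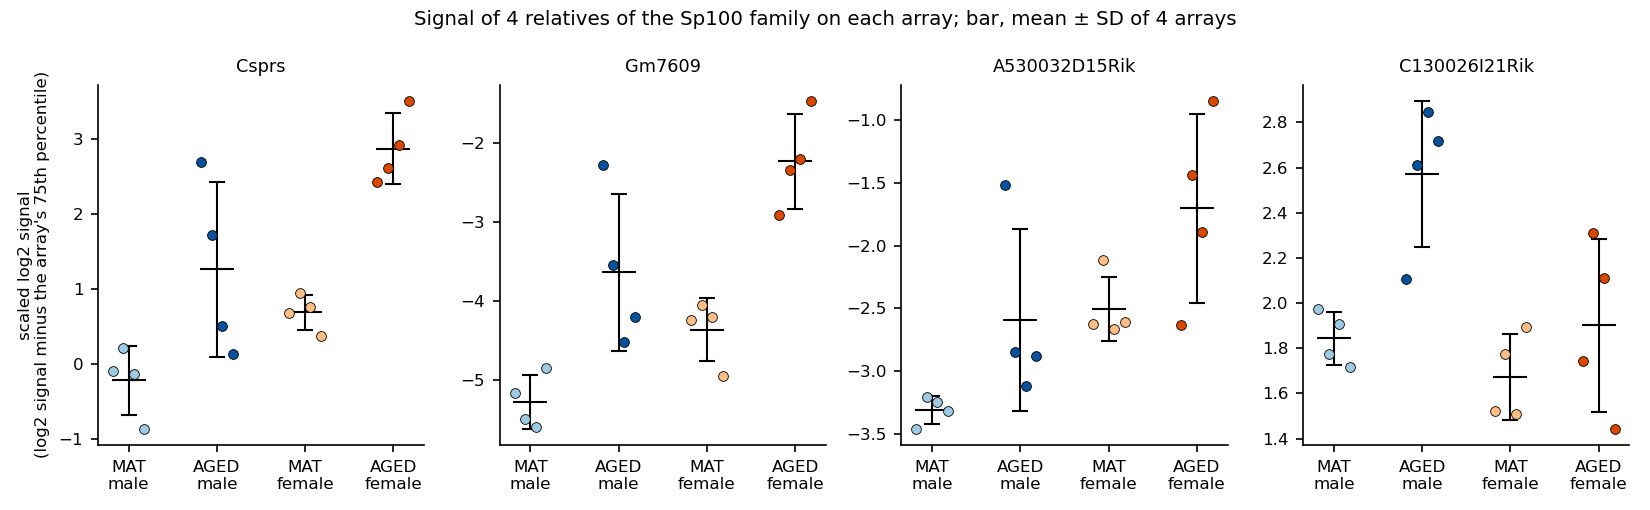
Scaled log2 signal of Csprs, Gm7609, A530032D15Rik and C130026I21Rik (y axis, each panel with its own range) in the 4 groups (x axis); points are arrays and bars the mean ± SD of 4 arrays. AGED females lay above MAT females for Csprs and Gm7609, and AGED male replicate 1 was the highest AGED male array for every gene shown but C130026I21Rik.

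The same array stood out for the members. AGED male replicate 1 was the highest of the 4 AGED males for both intervals, Sp100 and Sp110, at -2.51, -2.17, -2.75 and 6.90, and the 75th percentile of its log2 signals was 9.18, beside 9.90 on the next lowest AGED male array. Without it the male change of the first interval was 1.75 and that of the second 0.96, and those of Sp100 and Sp110 were -0.30 and -0.01. The leukocyte and interferon values of this array stand with those lists below. Without it the sex difference of the first interval in AGED mice was -1.31 (adjusted p = 0.00853, limma), and over all genes 87 were called higher and 215 lower in AGED males, and 106 higher and 14 lower in AGED females.

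No partner of Sp100 in the PML nuclear body passed the test with age. Of 17 genes listed, all were tested and 0 were called in either sex, with a median change of 0.12 in males and 0.01 in females. Sumo2, which encodes a SUMO protein, had AGED minus MAT differences of 0.32 in males and 0.16 in females. Pml itself differed by 0.09 and 0.01.

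The interferon pathway, to which the family responds, was read in the order of signalling. Of the ligands 4 of 6 were tested and 0 were called, with Ifnl3 at -0.65 in males and -0.02 in females. Ifnk differed by -1.03 in males, where it was well above background on 1 of the 4 AGED arrays, and by -0.14 in females. Of the receptors 4 of 4 were tested and 0 were called, with Ifngr1 at 0.35 and 0.14 and Ifnar2 at -0.20 and -0.02. Of 11 signal transducers 0 were called in males and 2 rose in females, beside the 0.179% of all genes called higher there. These were Irf9, the DNA-binding subunit of the complex that type I interferon activates, by 1.35 (adjusted p = 0.0220, limma), and Irf7, which drives interferon genes, by 2.93 (adjusted p = 0.0442). The Irf9 call was lost without AGED female replicates 2 or 4 or MAT female replicates 1, 2 or 4 (adjusted p between 0.0594 and 0.110). The Irf7 call was lost without 13 of the 16 arrays in turn (adjusted p up to 0.176), all but AGED male replicates 1 and 3 and MAT male replicate 2, and with quantile normalization (0.0526) or no filter (0.0731). Neither was called with the replicate number as a block (0.0808 and 0.107) or by the methods' t-test after adjustment (0.0815 and 0.0656).

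Interferon-stimulated genes had medians of opposite sign in the sexes. Of 31 listed, 29 were tested. In females 7 were called higher and 0 lower, beside 0.179% and 0.0112% of all genes. All 29 had a positive change, and the median was 1.21. AGED arrays were all above MAT arrays for 27, beside 5.07% of all genes. In males 0 were called, 2 had a positive change and the median was -0.31. The first by adjusted p in females were Usp18, which removes ISG15 from proteins (1.13, adjusted p = 0.0266, limma), and Ifit1, which binds viral RNA (2.41, 0.0267). Next came Ifit3 (1.97, 0.0288) and Xaf1, a partner of apoptosis inhibitors (1.77, 0.0288). The difference of the age changes was called for 5 of the 29, beside 0.149% of all genes. Leaving out 1 array moved the 7 calls to between 0 and 18, with 0 without AGED female replicates 2 or 4 or MAT female replicates 1 or 4, 1 without AGED female replicate 1 or MAT female replicate 2, 4 without MAT male replicates 1 or 3, 13 without AGED male replicate 3 and 18 without AGED male replicate 1. The median of the list in females stayed between 1.14 and 1.34. None of the 7 was called with the replicate number as a block (adjusted p between 0.0704 and 0.107, limma). The methods' t-test after adjustment called none of them either (adjusted p between 0.0601 and 0.1345). With no filter on dim probes, of the 7 only Usp18 and Ifit1 stayed called (adjusted p = 0.0465 for each, limma). The mean signal over the list was 1.75 on AGED male replicate 1 and 0.02 to 0.87 on the other AGED males, and without that array the male median was -0.67 and 2 genes were called lower. The intervals changed by 1.96 and 1.16 in males, where the median of the list over all arrays was -0.31. They were selected for their age changes in both sexes, so this contrast cannot show whether they follow the list, and it was not tested.

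**Figure D4:**
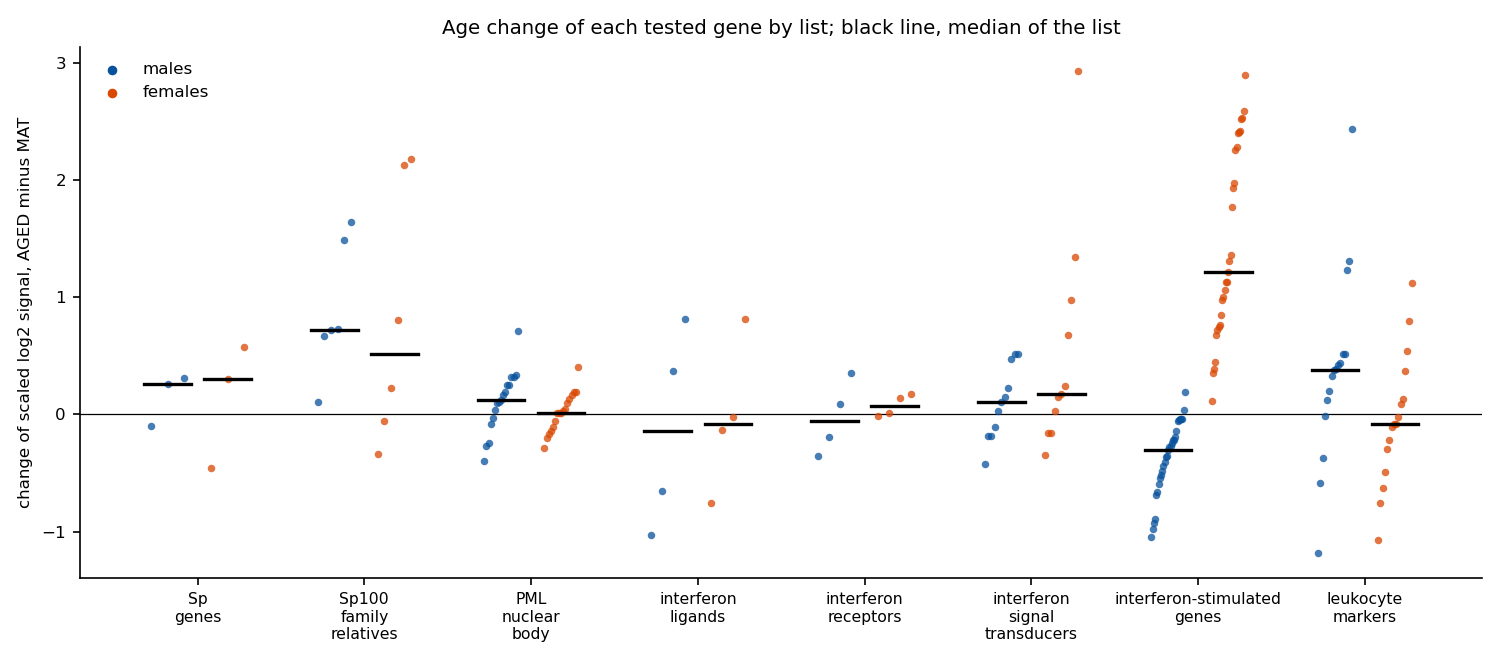
Age change of every tested gene (y axis, AGED minus MAT, scaled log2 signal) in 8 lists (x axis), with males in blue and females in orange and the median of each list as a black line. Interferon-stimulated genes had a median of 1.21 in females and -0.31 in males, while PML nuclear body genes had medians of 0.01 and 0.12.

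The family is best known from leukocytes, so their markers were read beside it. Of 17 leukocyte markers 16 were tested. In males 1 was called higher, S100a8 of neutrophils (2.43, adjusted p = 0.0211, limma), beside 0.276% of all genes. In females 0 were called, and 0 were lower in either sex. The S100a8 call was lost without MAT male replicates 3 or 4 (adjusted p = 0.0742 and 0.0504) and with males fitted alone (0.157). It was also lost by the methods' t-test after adjustment (adjusted p = 0.328). The median change was 0.38 in males and -0.09 in females. The mean signal over the list ran from -1.40 to -0.27 on MAT male arrays and from -1.20 to 0.42 on AGED male arrays. The highest of these was AGED male replicate 1, which was the highest AGED male for 14 of the 16 markers. Ptprc, which encodes the common leukocyte antigen CD45, was at 0.55 on that array and at -1.85 to -1.14 on the other AGED males. Cd8a, a marker of cytotoxic T cells, was at -0.98 beside -4.71 to -3.22, and the ligand gene Ifng at 0.43 beside -5.42 to -3.92. Ptprc, Cd8a and Ifng are given as examples for this array, outside the naming rule stated below. Without this array the male median of the list was 0.09. The mean signal over the list ran from -0.23 to 0.27 on MAT female arrays and from -0.85 to 0.40 on AGED female arrays. The part of leukocyte content in the members' changes was not tested.

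Likeness of pattern was described with Pearson correlations of scaled log2 signal over the 16 arrays, which share group structure, and again after subtracting group means. Both intervals were selected on their age changes. That selection favours high correlations over all arrays, both between the intervals and with genes that rise with age. The genes most like the first interval were Gm5150, Csprs and Gm7609, with r of 0.93, 0.92 and 0.92 (0.82, 0.66 and 0.52 within groups). Those most like the second were Gm5150, Ly6e, a membrane protein gene induced by interferon, and Afg3l1, with 0.92, 0.92 and 0.89 (0.88, 0.73 and 0.49 within groups). For Sp100 they were Oas1a and Cmpk2, both induced by interferon, and BC147527, with 0.94, 0.92 and 0.91 (0.89, 0.88 and 0.84 within groups). For Sp110 Neurl1b, Mms22l and Kcna4 reached 0.99 (also 0.99 within groups). For Sp140 Lrwd1, Tyw3 and Ppp4r3b reached 0.93, 0.90 and 0.89 (0.95, 0.87 and 0.89 within groups). Among the members, the intervals correlated at 0.90 with each other and at 0.59 and 0.58 with Sp100 (0.76, 0.55 and 0.87 within groups). The tested probes of Sp110 and Sp140 correlated at -0.54 over the same arrays (-0.59 within groups). These values hold for the tested probes alone, since the probes of a gene could differ. On AGED male replicate 4 the tested Sp110 probe was the lowest of its group (5.66) and another Sp110 probe the highest (3.51).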

How the data were processed

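Gene expression was measured in the bladder body of 16 mice on 1-colour Agilent SurePrint G3 arrays, 4 of each sex and age, grouped by the deposited titles. The authors deposited the processed signal, a background-subtracted intensity per spot from Feature Extraction (9.1 per the submitters' processing notes, 10.7.3.1 per the file headers), not scaled across arrays. They also deposited log2 values centred on each probe's median, used as an alternative.

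Log2 signals less the 75th percentile of the array were used. Control spots and outlier-flagged values (399) were left out, no spot was saturated, and 26582 of 55681 probes were named through RefSeq accessions. Probes well above background on 4 or more of the 16 arrays were kept (37008 probes). The 4 group means were fitted in limma 3.58.1 (R 4.3.3), with 12 residual degrees of freedom. The number of arrays limits the precision. The procedure was tested on simulated data. The members and gene lists were chosen with earlier results of these data known. Named were every member, called members of a list (up to 4 per sex by adjusted p) or else its 2 brightest, neighbours within 500 kb, and the 3 most correlated genes. Ptprc, Cd8a and Ifng were named besides this rule. The values of 1 gene named by this rule are not reported here.

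Alternatives were quantile and median scaling, normexp (offset 50) on median spot and background signals, the authors' log2 table, other filters and probe rules, a floor, the methods' t-test, each sex alone, array weights, a variance trend, a replicate block, and leaving out each array.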

Additional observations from a re-analysis of the deposited data

Results flagged for a closer look

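Among 36 groups of 4 arrays checked for a single array far from the others, over the 5 members and 4 relatives, 2 were past Dixon's limit, where chance gives about 1 in 20. Both were of A530032D15Rik. AGED male replicate 1 lay above the other AGED males by 0.831 of the range of the group, and MAT female replicate 2 lay above the other MAT females by 0.894 of the range. The age change differed between males and females for 6 listed genes in limma's test of the difference (adjusted p under 0.05). Male minus female, the difference of the age changes was -1.53 for Irf9, -3.39 for Ifit1, -2.87 for Ifit3, -1.32 for Usp18, -2.46 for Xaf1 and -1.36 for Ifih1, a sensor of viral RNA.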

How the results depend on the processing

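For the 5 members, age changes in each sex and sex differences in each age group were recomputed under 32 and 31 other settings. The age change of the first interval, 1.96 in males and 2.12 in females, was 1.18 and 1.34 with normexp and quantile normalization, 1.17 and 1.43 with normexp and 75th percentile scaling, and 1.12 and 1.51 over the median of its probes. In males it was 0.99 with probes well above background on all 16 arrays. The age change of the second interval, 1.16 and 1.55, was 0.30 and 0.91 with normexp and quantile normalization and 0.39 and 0.98 with normexp and 75th percentile scaling. The sex difference of the first interval in AGED mice, -1.10, was no longer called with normexp and quantile normalization (-0.53, adjusted p = 0.0640), normexp and 75th percentile scaling (-0.40, adjusted p = 0.155), the median of its probes (-0.66, adjusted p = 0.0679) or the methods' t-test after adjustment (-1.10, adjusted p = 0.148), and ran from -1.31 to -0.92 with each array left out. The cause was not tested. The age changes of both intervals stayed above 0, and no other tested difference of a member was called, under any of these settings.

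The labels do not pair mice by number, deviations of same-numbered arrays correlated at -0.15 to 0.16, and 1 of 16 pairs was the best match of its array. With the replicate number as a block (replicate block), the age changes of the first interval stayed at 1.96 and 2.12 and its sex difference in AGED mice was called (adjusted p = 0.0378). No call on a member changed, but over all genes the count called higher in AGED females went from 48 to 3, and neither chr1:85036677-85038530_R (adjusted p = 0.0808) nor chr1:84961943-84962737_F (adjusted p = 0.107) was called. The latter was also not called with no filter (adjusted p = 0.0697), and the methods' t-test after adjustment called no feature near the members (adjusted p = 0.129 and 0.110 for the same features in females and 0.319 for chr1:85304494-85305390_R in males). A slide block could not be fitted beside sex, since each slide holds 1 sex, and each sex fitted alone gives the within-slide value. Over all genes, 74 were called higher and 154 lower in AGED males, and these counts were 396 and 156 with no filter, 62 and 774 with normexp and quantile normalization, 64 and 689 with normexp and 75th percentile scaling, 5 and 6 with each sex alone, 186 and 311 by the methods' t-test and 0 and 0 after its adjustment, and with each array left out 38 to 102 and 85 to 275. In females 48 higher and 3 lower became 17 and 1, 37 and 1, 38 and 1, 83 and 15, 272 and 123, and 1 and 0 in the same order, 166 and 50 with array weights, and 1 to 106 higher with each array left out. Most interval probes were dim, and signals near background limit the size of their changes.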
